A study of Mus musculus with 8 samples.

Results

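The receptor for parathyroid hormone (PTH) and the cAMP machinery behind it were followed through 10 genes in femoral shaft bone of mice lacking Girk3. The genes, chosen by name, are the receptor gene Pth1r, the stimulatory G protein gene Gnas, the adenylyl cyclase genes Adcy3, Adcy6, Adcy7 and Adcy9, the protein kinase A (PKA) genes Prkaca and Prkar1a, and the cAMP phosphodiesterase genes Pde4b and Pde4d. All 10 were found among the 49315 gene IDs of the count table and all 10 passed the low-count filter, with at least 156 counts in every library. The data are bulk RNA sequencing counts from 4 Girk3 knockout mice (KO, Girk3-/-) and 4 wild-type mice (WT), all male, 24 weeks old and labelled C57BL6. RNA came from the shaft after its ends were cut away and its marrow washed out, per the labels' protocols. The labels do not give the allele or the extent of the deletion, nor whether the WT mice were littermates, and n counts mice, 1 library each.

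PTH and the related peptide PTHrP bind the PTH1 receptor on osteoblasts and osteocytes, where the receptor acts on the stimulatory G protein Gs. Gs activates adenylyl cyclases, cAMP releases the catalytic subunits of PKA from their regulatory subunits, and phosphodiesterases of the PDE4 family end the signal by breaking cAMP down. Receptors coupled to Gi/o inhibit adenylyl cyclase, and the G protein subunits they release open GIRK potassium channels, of which Girk3 is a subunit. Intermittent PTH builds bone through this receptor, and inactivating changes of the Gs alpha gene impair the response to PTH. Gi/o coupling thus opposes the pathway in osteoblasts, and the comparison asks whether the pathway's transcripts differ in Girk3-/- bone.

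Library totals were 30937465 to 32348592 counts in KO and 30087749 to 36553713 in WT. Kcnj9, the gene for Girk3, had 0 to 8 counts in KO and 6 to 23 in WT, too few to check the genotypes. The 10 osteoblast markers summed to 12879 to 22938 CPM in KO and 11895 to 25830.5 CPM in WT, most of it from Col1a1, Col1a2 and Sparc. The 8 osteocyte markers summed to 94.6 to 209 CPM in KO and 158 to 289 CPM in WT. RNA of other tissues was present as well. The 14 skeletal muscle markers summed to 108141 to 177592 CPM in KO and 68127 to 124166 CPM in WT, with positive log2 fold changes for 12 of the 14 and the extremes in KO replicate 4 and WT replicate 4. The 6 smooth muscle markers summed to 3065 to 5028 CPM in KO and 1706 to 3018 CPM in WT. Most of each sum was Des alone, at 2863 to 4775 CPM in KO and 1520 to 2817 CPM in WT. Des was highest in KO replicate 4 and lowest in WT replicate 4, the same libraries as for the skeletal muscle markers. The part of skeletal muscle RNA in the Des values was not tested, so these sums do not measure smooth muscle RNA alone. Every other smooth muscle marker stayed at or below 92.9 CPM in all libraries. The 7 adipocyte markers summed to 325 to 834 CPM in KO and 259 to 356 CPM in WT. The 8 neutrophil markers summed to 789 to 7464 CPM in KO and 1579.9 to 5507 CPM in WT, and the 8 B lymphoid markers to 312 to 709 CPM in KO and 426 to 707 CPM in WT. The 7 erythroid markers found summed to 4420 to 8870 CPM in KO and 3625 to 11552 CPM in WT. Log2 fold changes were positive for 6 of 6 smooth muscle, 7 of 7 adipocyte, 8 of 8 neutrophil, 3 of 8 B lymphoid and 3 of 7 erythroid markers. No marker found for these lists was at 0 in all libraries. In such bulk tissue, fewer cells of a type and less RNA per cell cannot be told apart.

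The start regions of the genes are shown because CREB, the transcription factor that PKA phosphorylates, binds the cAMP response element TGACGTCA and its shorter form TGACG. RefSeq start sites on GRCm38.p6 were matched for 9 of the 10 genes, as 26 windows of the 250 bases before a start. The full element stood in 1 of the 26 windows, before a Prkar1a start, and in 1.55% of all 32817 mouse windows of the same length. The shorter form, searched on both strands and contained in the full element, stood in 11 of the 26 windows, from 7 genes, and in 17.7% of all windows. The 17.7% is a share of windows and not of genes, and a gene with more windows has more places for a match, so the 7 genes have no background share beside them. Some windows of Gnas and of Prkar1a overlap each other. A match is a description of the letters and not a measured binding site. Pth1r has 3 windows, of which 1 holds the shorter form, Adcy7 3 with 1, Prkaca 2 with 1 and Prkar1a 6 with 3. A selection of 5 is printed: 2 of the receptor, 1 each of the cyclase with the smallest p and of the PKA catalytic gene, both with a match, and the Prkar1a window with the full element. Matches within them are in capitals.
Pth1r, chr9:110747146-110747395, minus strand: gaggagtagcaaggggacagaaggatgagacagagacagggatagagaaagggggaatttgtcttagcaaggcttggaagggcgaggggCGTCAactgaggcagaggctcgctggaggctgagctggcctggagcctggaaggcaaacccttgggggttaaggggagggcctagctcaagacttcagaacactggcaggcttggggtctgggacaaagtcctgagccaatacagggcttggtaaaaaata
Pth1r, chr9:110743687-110743936, minus strand: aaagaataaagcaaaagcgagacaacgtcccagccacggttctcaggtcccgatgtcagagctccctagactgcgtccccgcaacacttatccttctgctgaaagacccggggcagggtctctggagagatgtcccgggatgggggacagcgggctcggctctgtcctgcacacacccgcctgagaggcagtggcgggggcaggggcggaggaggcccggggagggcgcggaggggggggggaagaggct
Adcy7, chr8:88282742-88282991, plus strand: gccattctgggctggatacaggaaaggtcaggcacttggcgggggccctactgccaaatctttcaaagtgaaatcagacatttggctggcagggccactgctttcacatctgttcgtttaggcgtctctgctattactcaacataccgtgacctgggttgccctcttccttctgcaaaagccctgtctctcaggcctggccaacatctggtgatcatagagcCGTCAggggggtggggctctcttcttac
Prkaca, chr8:83972728-83972977, plus strand: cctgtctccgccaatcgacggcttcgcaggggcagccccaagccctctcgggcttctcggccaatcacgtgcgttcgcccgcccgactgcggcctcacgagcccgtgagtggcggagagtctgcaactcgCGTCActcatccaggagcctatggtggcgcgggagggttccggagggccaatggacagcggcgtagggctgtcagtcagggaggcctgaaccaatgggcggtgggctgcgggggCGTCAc
Prkar1a, chr11:109650699-109650948, plus strand: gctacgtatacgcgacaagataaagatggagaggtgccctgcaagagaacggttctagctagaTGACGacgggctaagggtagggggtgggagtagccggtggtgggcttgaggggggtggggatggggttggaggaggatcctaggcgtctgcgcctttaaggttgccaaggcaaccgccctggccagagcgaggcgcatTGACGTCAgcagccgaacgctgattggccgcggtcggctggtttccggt
The longer capital run in the Prkar1a window begins 49 bases before the start and is the full element. The second Pth1r window and the third, not printed, hold no match.

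None of the 10 genes passed the test between genotypes. Levels are CPM, read counts scaled to library size with TMM factors, and a gene was called at an adjusted p under 0.05 over all 17450 genes tested. Of all tested genes, 0.0115% were called. At an unadjusted p under 0.05, 1 of the 10 stood out, Adcy7, beside 18.2% of all tested genes. DESeq2 and limma-voom with quality weights called 0 of the 10 as well, while they called 6.19% and 4.04% of the genes they tested. KO and WT libraries overlapped in CPM for all 10 genes, whereas 13.1% of all tested genes had groups that did not overlap, 7.33% with KO higher and 5.78% with KO lower. The fitted log2 fold changes ran from -0.67 to 0.25 with a median of -0.12, against a median of -0.012 over all tested genes. Log2 fold changes varied with exon length in these libraries. For each of the 10, the median was taken over all genes of its exon-length decile, and these 10 values had a median of -0.10, close to the median of the 10 genes themselves. Of the 10, 6 were negative, beside 51.4% of all tested genes. A p above the threshold does not show equal levels, and the 95% intervals given with each gene state the differences that these 8 libraries leave possible.

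**Figure D1:**
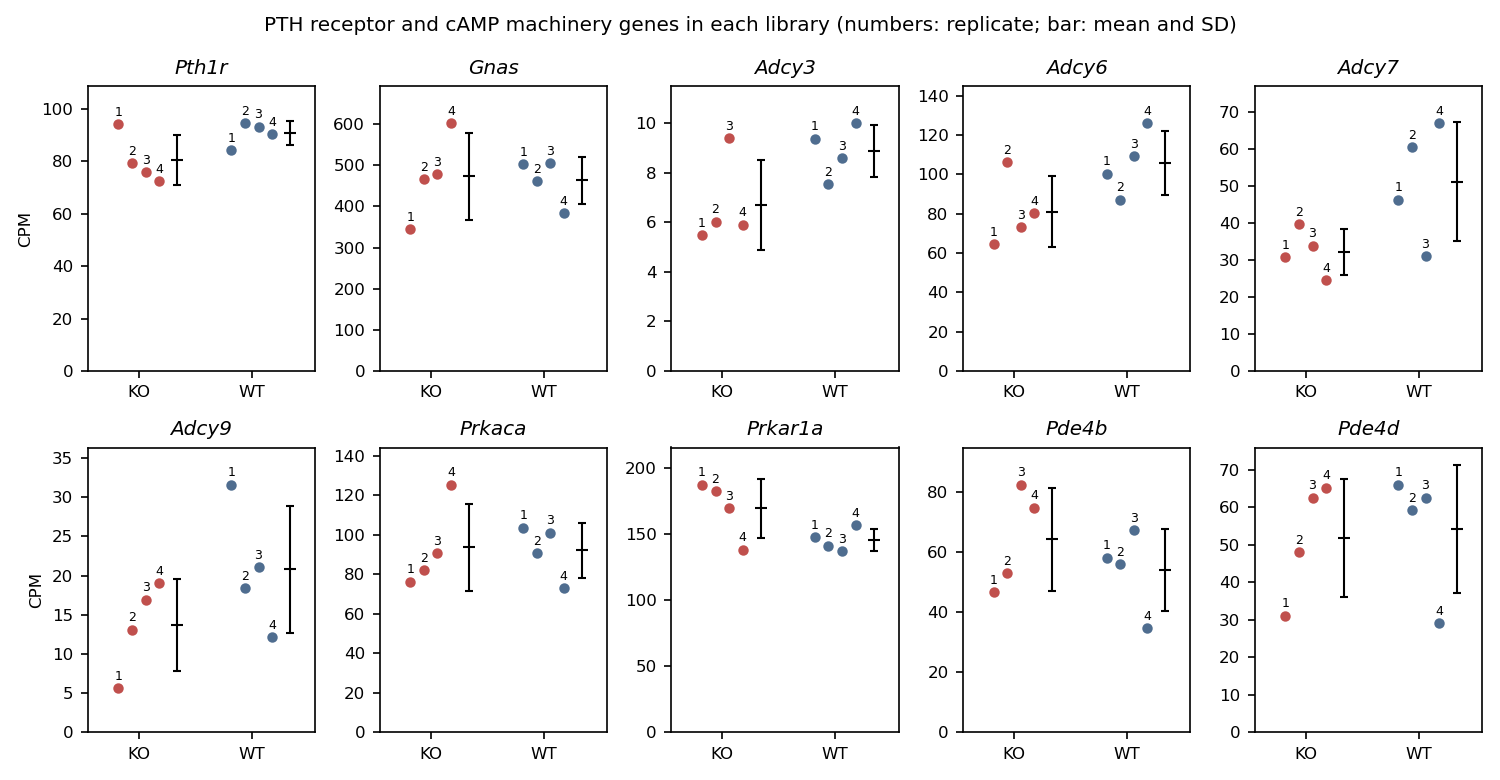
Level of each of the 10 genes in CPM (vertical axis, from 0) in the 4 KO and the 4 WT libraries, with the replicate number beside each point and the group mean with SD as a bar. In all 10 panels the KO and WT points overlap, and for Prkaca KO replicate 4 is the highest library and WT replicate 4 the lowest.

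Pth1r encodes the receptor that PTH and PTHrP share (ENSMUSG00000032492, chromosome 9, 110722085 to 110747145, minus strand, GRCm38). It was at 94.1, 79.3, 75.9 and 72.4 CPM in KO replicates 1 to 4, against 84.2, 94.5, 93.2 and 90.5 CPM in WT replicates 1 to 4. KO replicates 2, 3 and 4 lay below all WT libraries and KO replicate 1 lay among them. The means were 80.4 ± 9.56 CPM in KO and 90.6 ± 4.58 CPM in WT (SD, n = 4 each), and the log2 fold change of KO over WT was -0.17 (SE 0.12, 95% confidence interval -0.43 to 0.086, adjusted p = 0.474 in edgeR's quasi-likelihood test). Per exon length and without TMM scaling, Pth1r was at 50.5 to 76.4 TPM in KO and 76.5 to 94.8 TPM in WT. On that scale the groups did not overlap, by a gap of less than 1 TPM, and in the same direction they did not overlap for 8.65% of the tested genes that have a length. The negative sign of the log2 fold change held in the 19 alternative settings tried, at -0.26 to -0.11. The osteocyte markers leaned the same way, negative for 7 of 8, with a median log2 fold change of -0.34. The osteoblast markers were negative for 6 of 10, with a median of -0.20, and the part of either cell type in the Pth1r values was not tested. Exons of the muscle gene Myl3 on the other strand share 95 bases with Pth1r exons, and Myl3 was at 216 to 788 CPM in KO and 106 to 299 CPM in WT. The strand setting of the counting is not given in the sources used here, so reads of that stretch are uncertain.

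Gnas encodes the alpha subunit of Gs and several imprinted transcripts from alternative first exons (ENSMUSG00000027523, chromosome 2, 174284320 to 174346744, plus strand). Its counts pool these transcripts, and 13.1% of its exon bases are shared with Gm20721 and 8.83% with the antisense transcript Nespas, which had at most 4.36 and 0.304 CPM. Gnas was at 345, 466, 479 and 603 CPM in KO replicates 1 to 4, against 503, 462, 504.5 and 383 CPM in WT replicates 1 to 4. The highest value stood in KO replicate 4 and the lowest in KO replicate 1, so the KO libraries spanned all WT values. The log2 fold change of KO over WT was 0.031 (SE 0.19, 95% confidence interval -0.39 to 0.45, adjusted p = 0.955 in edgeR's quasi-likelihood test). With single libraries left out it ran from -0.10 to 0.15.

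Mammalian adenylyl cyclases turn ATP into cAMP, and the 4 cyclase genes followed here differ in how they are regulated. All 4 had negative log2 fold changes, and the sign held for each of them in the 19 alternative settings, but 0 of the 4 passed. Adcy7, a cyclase stimulated by G protein beta-gamma subunits and abundant in blood cells (ENSMUSG00000031659, chromosome 8, 88272403 to 88329962, plus strand), was at 30.7, 39.6, 33.8 and 24.5 CPM in KO replicates 1 to 4, against 46.3, 60.4, 30.98 and 66.97 CPM in WT replicates 1 to 4. KO replicates 1 and 4 lay below all WT libraries, and WT replicate 3 lay within the KO range. The means were 32.2 ± 6.31 CPM in KO and 51.2 ± 15.99 CPM in WT (SD, n = 4 each), and the log2 fold change of KO over WT was -0.67 (SE 0.23, 95% confidence interval -1.19 to -0.15, adjusted p = 0.174 in edgeR's quasi-likelihood test). The 8 macrophage markers, for cells known to express Adcy7, summed to 125 to 230.4 CPM in KO and 147 to 274 CPM in WT, lowest in KO replicate 4 and highest in WT replicate 4, as Adcy7 itself was. The same held for the osteocyte markers (94.6 and 289 CPM) and the 6 megakaryocyte markers (206 and 932 CPM). Within KO, the macrophage sum was highest in replicate 3 and Adcy7 in replicate 2. With a marrow score (the mean log2 CPM of erythroid, neutrophil and B lymphoid markers) as a covariate in edgeR the log2 fold change of Adcy7 was -0.66 (adjusted p = 0.0601), and the part of macrophage RNA was not tested. With a muscle score (the mean log2 CPM of the muscle markers) in its place it was -0.24 (0.46), and without both libraries numbered 4 -0.40 (0.295). The unadjusted p of Adcy7 was 0.0161, the smallest of the 10 genes and rank 1613 of all genes tested.

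Adcy6, a cyclase inhibited by calcium and by Gi (ENSMUSG00000022994, chromosome 15, 98589973 to 98610076, minus strand), was at 64.4, 106, 72.9 and 80.3 CPM in KO replicates 1 to 4, against 100.3, 87.00, 109 and 126 CPM in WT replicates 1 to 4. KO replicates 1, 3 and 4 lay below all WT libraries, while KO replicate 2 lay among them. The means were 80.9 ± 17.9 CPM in KO and 106 ± 16.3 CPM in WT (SD, n = 4 each), and the log2 fold change of KO over WT was -0.38 (SE 0.17, 95% confidence interval -0.77 to 0.0032, adjusted p = 0.279 in edgeR's quasi-likelihood test). Adcy9, a cyclase known for its weak response to forskolin (ENSMUSG00000005580, chromosome 16, 4287529 to 4420498, minus strand), was at 5.65, 13.1, 16.9 and 18.99 CPM in KO replicates 1 to 4, against 31.6, 18.3, 21.1 and 12.1 CPM in WT replicates 1 to 4. The spread within each genotype was wide, with the lowest value in KO replicate 1 and the highest in WT replicate 1. The log2 fold change of KO over WT was -0.60 (SE 0.37, 95% confidence interval -1.42 to 0.21, adjusted p = 0.421 in edgeR's quasi-likelihood test). Without KO replicate 1 it was -0.35 and without WT replicate 1 -0.33. Adcy3 (ENSMUSG00000020654, chromosome 12, 4133103 to 4213525, plus strand), the cyclase of olfactory neurons and of primary cilia, was the lowest of the 10 at 5.49, 6.03, 9.42 and 5.91 CPM in KO replicates 1 to 4, against 9.39, 7.54, 8.61 and 10.01 CPM in WT replicates 1 to 4. KO replicates 1, 2 and 4 lay below all WT libraries and KO replicate 3 lay among them. The log2 fold change of KO over WT was -0.40 (SE 0.20, 95% confidence interval -0.84 to 0.029, adjusted p = 0.306 in edgeR's quasi-likelihood test). Without KO replicate 3 it was -0.61. Cenpo, on the other strand, shares 22.1% of the exon bases of Adcy3, and was at 5.38 to 9.04 CPM in KO and 6.63 to 9.94 CPM in WT.

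Per exon length, the cyclase genes as a family were led by Adcy6. Of the summed TPM of the 10 Adcy genes, Adcy6 made up 34.4 ± 4.31% in KO and 36.96 ± 5.24% in WT, Adcy2 22.1 ± 3.17% in KO and 15.6 ± 5.06% in WT, Adcy7 13.9 ± 2.33% in KO and 18.05 ± 5.59% in WT and Adcy4 15.7 ± 4.69% in KO and 14.2 ± 1.92% in WT (SD, n = 4 each). Adcy9 made up 7.57 ± 3.16% in KO and 9.47 ± 3.49% in WT and Adcy3 3.15 ± 0.910% in KO and 3.38 ± 0.306% in WT. Every one of these shares overlapped between the genotypes. The summed level of the family was 83.6 ± 16.5 TPM in KO and 114 ± 13.4 TPM in WT, at 72.6, 107, 83.9 and 71.2 TPM in KO replicates 1 to 4 and 117, 104, 104 and 132 TPM in WT replicates 1 to 4. KO replicates 1, 3 and 4 lay below all WT libraries and KO replicate 2 lay among them. These sums are without TMM scaling, and in edgeR library totals in place of TMM moved the median log2 fold change of all genes by -0.10. The difference in the sums was not tested.

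**Figure D2:**
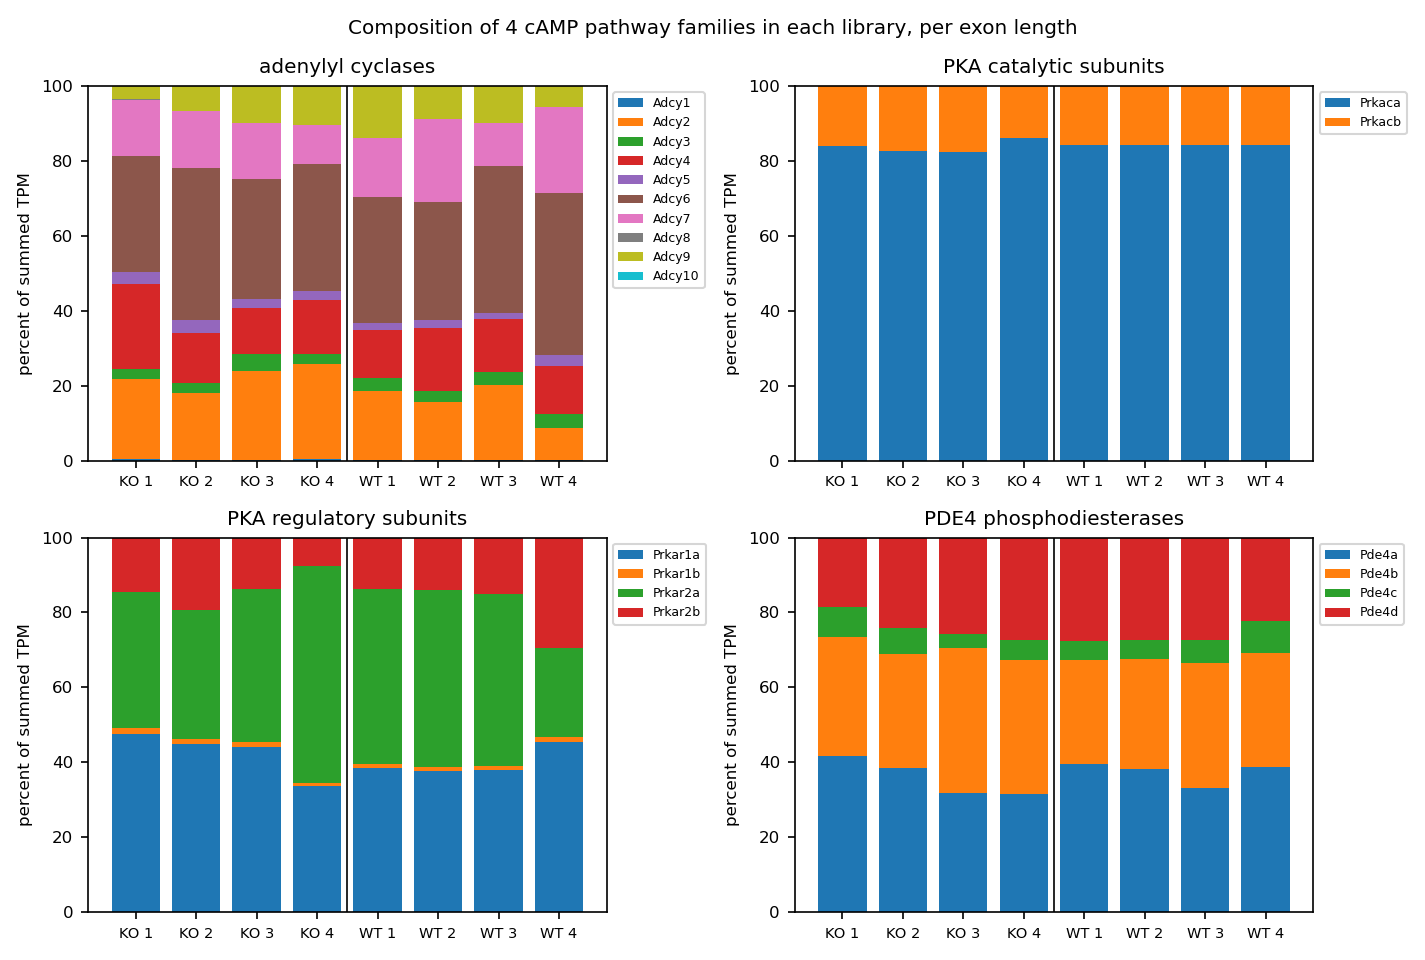
Share of each gene in the summed TPM of its family (vertical axis, percent) for the 4 KO libraries and then the 4 WT libraries. Adcy6 is the largest cyclase share in all 8 libraries, and WT replicate 4 stands apart among the PKA regulatory subunits with a Prkar2a share of 23.8%.

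PKA is a tetramer of catalytic and regulatory subunits. Prkaca, the main catalytic subunit gene (ENSMUSG00000005469, chromosome 8, 83972993 to 83996443, plus strand), was at 76.4, 82.3, 90.9 and 125 CPM in KO replicates 1 to 4, against 104, 90.7, 101 and 73.2 CPM in WT replicates 1 to 4. The groups overlapped throughout, with the highest value in KO replicate 4 and the lowest in WT replicate 4. The log2 fold change of KO over WT was 0.025 (SE 0.18, 95% confidence interval -0.37 to 0.42, adjusted p = 0.962 in edgeR's quasi-likelihood test). With single libraries left out it ran from -0.14 to 0.11. Prkar1a, the gene of the type I alpha regulatory subunit that restrains the kinase (ENSMUSG00000020612, chromosome 11, 109649405 to 109669656, plus strand), was at 188, 183, 169.9 and 139 CPM in KO replicates 1 to 4, against 148, 141, 137 and 157 CPM in WT replicates 1 to 4. KO replicates 1, 2 and 3 lay above all WT libraries and KO replicate 4 lay among them. The means were 169.8 ± 22.1 CPM in KO and 146 ± 8.50 CPM in WT (SD, n = 4 each), and the log2 fold change of KO over WT was 0.22 (SE 0.13, 95% confidence interval -0.074 to 0.51, adjusted p = 0.417 in edgeR's quasi-likelihood test). The positive sign held in the 19 alternative settings, at 0.13 to 0.37, with adjusted p between 0.08 and 0.762.

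Per exon length, Prkaca made up 83.9 ± 1.75% in KO and 84.3 ± 0.0974% in WT of the catalytic subunit transcripts Prkaca and Prkacb (SD, n = 4 each), with 82.4 to 86.2% in KO and 84.2 to 84.4% in WT. Among the 4 regulatory subunit genes, Prkar1a made up 42.6 ± 6.07% in KO and 39.9 ± 3.75% in WT, Prkar2a 42.3 ± 10.7% in KO and 40.95 ± 11.5% in WT and Prkar2b 13.8 ± 4.80% in KO and 18.01 ± 7.70% in WT (SD, n = 4 each). In KO replicates 1, 2 and 3 Prkar1a was the larger share, at 44.2 to 47.5%, against a Prkar2a share of 34.4 to 40.7%. In KO replicate 4, Prkar2a led with 57.8%. In WT replicates 1, 2 and 3 Prkar2a was the larger share, at 45.9 to 47.3%, against a Prkar1a share of 37.6 to 38.5%. In WT replicate 4, Prkar1a led with 45.5%. The order within each genotype was thus reversed in its replicate 4, the library with the most muscle marker RNA in KO and the least in WT. The part of muscle RNA in these shares was not tested.

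PDE4 enzymes degrade cAMP, and PTH is known to induce PDE4 genes in osteoblasts as a feedback. Pde4b (ENSMUSG00000028525, chromosome 4, 102087543 to 102607259, plus strand) was at 46.6, 53.1, 82.4 and 74.8 CPM in KO replicates 1 to 4, against 58.1, 56.02, 67.3 and 34.8 CPM in WT replicates 1 to 4. The lowest value stood in WT replicate 4 and the highest in KO replicate 3, and the groups overlapped. The log2 fold change of KO over WT was 0.25 (SE 0.23, 95% confidence interval -0.26 to 0.76, adjusted p = 0.621 in edgeR's quasi-likelihood test). Without WT replicate 4 it was 0.082 and without KO replicate 3 0.11. Pde4d (ENSMUSG00000021699, chromosome 13, 108449948 to 109953461, plus strand) was at 31.1, 48.00, 62.6 and 65.2 CPM in KO replicates 1 to 4, against 66.00, 59.3, 62.6 and 29.1 CPM in WT replicates 1 to 4. The lowest pair of values came from different genotypes, WT replicate 4 and KO replicate 1. The log2 fold change of KO over WT was -0.069 (SE 0.28, 95% confidence interval -0.70 to 0.56, adjusted p = 0.931 in edgeR's quasi-likelihood test). Leaving out KO replicate 1, WT replicate 1 or WT replicate 3 turned the sign of Pde4d, to 0.11, 0.039 and 0.0073. Of the summed PDE4 transcripts per exon length, Pde4b made up 34.2 ± 3.77% in KO and 30.2 ± 2.42% in WT and Pde4d 24.03 ± 3.83% in KO and 26.2 ± 2.55% in WT, beside 35.9 ± 4.97% in KO and 37.4 ± 2.92% in WT for Pde4a (SD, n = 4 each).

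**Figure D3:**
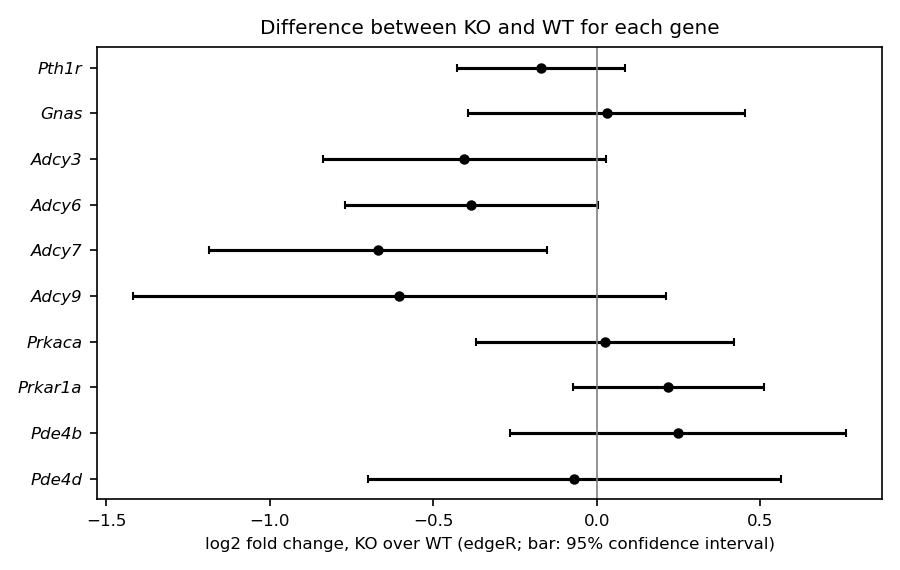
Log2 fold change of KO over WT (horizontal axis) for each of the 10 genes, with the unadjusted 95% confidence interval of the edgeR fit. The interval of Adcy7 lies below 0, from -1.19 to -0.15, and the other 9 intervals include 0.

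Across genes, levels can be compared only per length. Over all 8 libraries Gnas had the highest mean, 106 TPM, followed by Prkaca at 94.6, Prkar1a at 93.9 and Pth1r at 75.3 TPM. The libraries ranged over 73.1 to 119 TPM for Gnas, 72.9 to 111 for Prkaca, 65.3 to 117 for Prkar1a and 50.5 to 94.8 for Pth1r, so the ranges of these 4 overlapped. Adcy6 followed at 35.9 TPM, Adcy7 at 16.3, Pde4b at 14.1, Pde4d at 11.2, Adcy9 at 8.48 and Adcy3 at 3.25 TPM. The ranges over libraries of all 9 neighbouring pairs in this order overlapped. Adcy3, at 1.93 to 4.91 TPM, lay below every library of Adcy6, Adcy7, Pde4b and Pde4d. The length used is that of all annotated exons of a gene, 11186 bases for Gnas, 2925 for Pth1r and 2488 for Prkaca. Where the transcripts present are shorter than that, TPM is too low. This order, above all the place of Gnas with its pooled transcripts, and the shares within families are uncertain to that extent.

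The extreme CPM values of several genes fell in the libraries with the most and the least muscle marker RNA. KO replicate 4, at 177592 CPM of summed skeletal muscle markers, had the highest Gnas and Prkaca values of all libraries. WT replicate 4, at 68127 CPM, had the lowest Prkaca, Pde4b and Pde4d values and the highest Adcy6 and Adcy7 values. KO replicate 4 also had the lowest TMM factor, 0.831, and WT replicate 4 the highest, 1.18. In TPM, without TMM scaling, WT replicate 1 was highest for Gnas (119) and Prkaca (111). KO replicate 1 was lowest there for Prkaca (72.9) and Pde4d (6.15). WT replicate 4 stayed lowest in TPM for Pde4b (10.1) and highest for Adcy6 (56.9) and Adcy7 (30.5). With the muscle score as a covariate in edgeR, the log2 fold change was -0.32 for Prkaca (adjusted p = 0.113), -0.26 for Gnas (0.299), -0.58 for Pde4d (0.119) and -1.18 for Adcy9 (0.0795). That of Pth1r was -0.11 (0.61). In that fit 9 of the 10 genes had negative log2 fold changes, and 0 of 10 passed, while 7.67% of all genes did. Prkar1a, at 0.37 (0.08), was the 1 positive gene. Without both libraries numbered 4, 8 of the 10 were negative, 0 passed, and Adcy9 was at -0.99. The muscle markers themselves had a median log2 fold change of 0.45, with summed CPM that overlapped between the genotypes. Outside the libraries numbered 4, the sums were 108141 to 135810 CPM in KO and 109353 to 124166 CPM in WT. The muscle score may share part of its variation with genotype, and this was not tested.

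**Figure D4:**
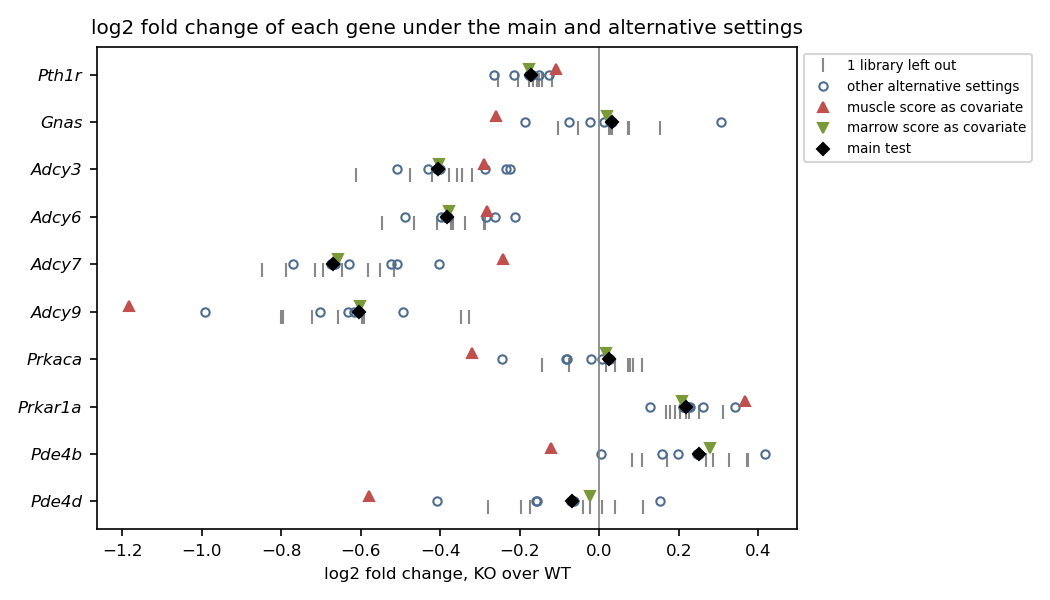
Log2 fold change of KO over WT (horizontal axis) for each gene in the main test (diamond) and in 19 alternative settings, with the muscle score (up triangle), the marrow score (down triangle) and single left-out libraries (ticks) marked apart. Adcy3, Adcy6, Adcy7, Adcy9 and Pth1r stay below 0 and Prkar1a above 0 in all of them, and Gnas, Prkaca, Pde4b and Pde4d lie on both sides.

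The rest of the pathway was counted in 10 lists of 125 genes in all, of which 112 were tested. In edgeR 0 of the 112 passed; at an unadjusted p below 0.05, KO was higher for 1 gene and lower for 12, beside 9.59% and 8.59% of all tested genes. DESeq2 called 4 and limma-voom 5 of them, or 3.67% and 4.46% of those with an adjusted p, beside 6.19% and 4.04% of all genes. Upstream, Pth had 0 counts in all 8 libraries. The gene of PTHrP, Pthlh, was in the list of ligands and other Gs-coupled receptors, where 10 of 16 tested genes were positive on the log2 scale and the median was 0.08. Ramp2, which escorts the calcitonin-receptor-like receptor to the cell surface, was at 18.6 to 28.9 CPM in KO and 16.1 to 17.4 CPM in WT (log2 fold change 0.40 ± 0.15 SE, adjusted p = 0.204 by edgeR), and 33.4% of its exon bases are shared with Vps25. Without KO replicate 1 the log2 fold change of Ramp2 was 0.23. Vipr2, a receptor for vasoactive intestinal peptide, was at 3.62 to 4.66 CPM in KO and 3.65 to 6.54 CPM in WT (log2 fold change -0.32 ± 0.21 SE, adjusted p = 0.454 by edgeR), and its log2 fold change was -0.19 without WT replicate 1. Of the G protein genes, 4 of 6 were negative, with Gng12, a gamma subunit gene, at -0.18 and Gng2 at -0.19 on the log2 scale. Among the other cyclases and cyclase-associated proteins 3 of 6 were negative, with Adcy4 at -0.16 and Adcy2 at 0.21. With single libraries left out Gng2 ran from -0.32 to -0.0061, Adcy4 from -0.31 to -0.056 and Adcy2 from 0.013 to 0.34.

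Of the other PKA subunits and inhibitors, 6 of 7 were positive, their median log2 fold change was 0.16, and 0 had an unadjusted p under 0.05. Pkig, a PKA inhibitor, was at 79.6 to 103 CPM in KO and 71.02 to 84.2 CPM in WT (log2 fold change 0.26 ± 0.13 SE, adjusted p = 0.317 by edgeR). Prkar2b, a type II regulatory subunit, had a log2 fold change of -0.24 whose sign turned in 4 of the alternative settings. Of 14 tested A-kinase anchoring proteins, which hold PKA at its targets, 11 were negative with a median of -0.26, and 4 had an unadjusted p under 0.05, all lower in KO, beside 8.59% of all tested genes. The medians of all genes in the length deciles of the 14 were centred on -0.10. Akap13 was at 85.6 to 99.01 CPM in KO and 109 to 127 CPM in WT, with every KO library below every WT library (log2 fold change -0.39 ± 0.11 SE, adjusted p = 0.117 by edgeR). It passed in DESeq2, in limma-voom and with the marrow score as a covariate (adjusted p = 0.00994, 0.0389 and 0.0307). With exon length and GC dependence removed its log2 fold change was -0.13 (adjusted p = 0.671). Akap2 (log2 fold change -1.14 ± 0.33 SE, adjusted p = 0.126 by edgeR) was at 0.257 to 0.607 CPM in KO and 0.743 to 0.998 CPM in WT, but 84.4% of its exon bases are shared with Pakap, so its level is uncertain. Akap2 passed in 3 of the 18 alternative settings in which it was tested.

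Of the other cAMP phosphodiesterases, 11 of 14 were negative with a median of -0.072, and 0 had an unadjusted p under 0.05. Pde2a, which cGMP stimulates, was at 0.932 to 2.24 CPM in KO and 2.19 to 2.96 CPM in WT (log2 fold change -0.61 ± 0.28 SE, adjusted p = 0.28 by edgeR), with 64.3% of its exon bases shared with Gm45837, and Pde10a had a log2 fold change of -0.30. Of the genes that desensitize receptors, Grk3 was at 19.98 to 28.3 CPM in KO and 26.9 to 38.3 CPM in WT (log2 fold change -0.37 ± 0.16 SE, adjusted p = 0.267 by edgeR), and Arrb1, which encodes a beta-arrestin, had a log2 fold change of -0.42 (edgeR adjusted p = 0.329), and -0.24 without WT replicate 4. On the EPAC branch, which carries cAMP signals without PKA, Rapgef4 was at 20.2 to 43.7 CPM in KO and 18.2 to 23.9 CPM in WT (log2 fold change 0.47 ± 0.22 SE, adjusted p = 0.294 by edgeR), and the log2 fold change without KO replicate 1, the highest library, was 0.19. Rapgef3 had a log2 fold change of -0.14.

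Downstream of PKA, the list of CREB family members, their coactivators and the kinases and deacetylases of the salt-inducible kinase branch leaned negative, 11 of 15, at a median log2 fold change of -0.20. Of the 15, 5 had an unadjusted p under 0.05, all lower in KO, beside 8.59% of all tested genes. The medians of all genes in the length deciles of the 15 were centred on -0.19, close to the list's own median. In 3 the groups did not overlap, also lower in KO, beside 5.78% of all tested genes. Ep300, a histone acetyltransferase that CREB recruits, was at 49.3, 49.8, 48.5 and 56.2 CPM in KO replicates 1 to 4, against 78.7, 75.2, 66.7 and 68.6 CPM in WT replicates 1 to 4. Every KO library lay below every WT library (log2 fold change -0.51 ± 0.10 SE, adjusted p = 0.0769 by edgeR), and it passed in 5 of the 19 alternative settings. Hdac7, a class IIa histone deacetylase, was at 42.7, 42.8, 38.5 and 46.2 CPM in KO replicates 1 to 4, against 55.4, 54.3, 50.97 and 53.3 CPM in WT replicates 1 to 4, again without overlap (log2 fold change -0.33 ± 0.097 SE, adjusted p = 0.128 by edgeR). Hdac7 passed in 3 of the 19 alternative settings. Sik2, named here after its values were seen, encodes a salt-inducible kinase that PKA inhibits after PTH. It was at 2.38, 5.15, 5.96 and 7.16 CPM in KO replicates 1 to 4, against 8.95, 11.1, 10.2 and 9.32 CPM in WT replicates 1 to 4. All KO libraries lay below all WT libraries (log2 fold change -0.94 ± 0.28 SE, adjusted p = 0.13 by edgeR), and Sik2 passed in DESeq2, in limma-voom and with the marrow score as a covariate (adjusted p = 0.0278, 0.0367 and 0.0332). Ppp2r1b on the other strand shares 15.0% of its exon bases. Once each library's dependence on exon length and GC was removed, Ep300, Hdac7 and Sik2 had log2 fold changes of -0.27, -0.12 and -0.79, with adjusted p of 0.23, 0.576 and 0.221.

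The 23 genes known to respond to PTH or cAMP in bone cells showed no common direction, with 10 of the 21 tested positive, 11 negative and a median of -0.0029. Per1, a clock gene with cAMP response elements, was at 33.3, 40.03, 41.6 and 26.9 CPM in KO replicates 1 to 4, against 45.4, 56.2, 42.5 and 76.6 CPM in WT replicates 1 to 4. All KO libraries lay below all WT libraries, KO replicate 3 and WT replicate 3 being less than 1 CPM apart (log2 fold change -0.64 ± 0.20 SE, adjusted p = 0.151 by edgeR). Per1 passed in 1 of the 19 alternative settings. Vdr, the vitamin D receptor gene, was at 23.7 to 38.9 CPM in KO and 32.7 to 52.6 CPM in WT (log2 fold change -0.44 ± 0.19 SE, adjusted p = 0.27 by edgeR), and its log2 fold change was -0.29 without KO replicate 4. Of the 21, 2 had an unadjusted p under 0.05, namely Per1 and Vdr, both lower in KO, beside 8.59% of all tested genes. In 1 of the 21, Per1, the groups did not overlap, with KO lower, beside 5.78% of all tested genes.

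**Figure D5:**
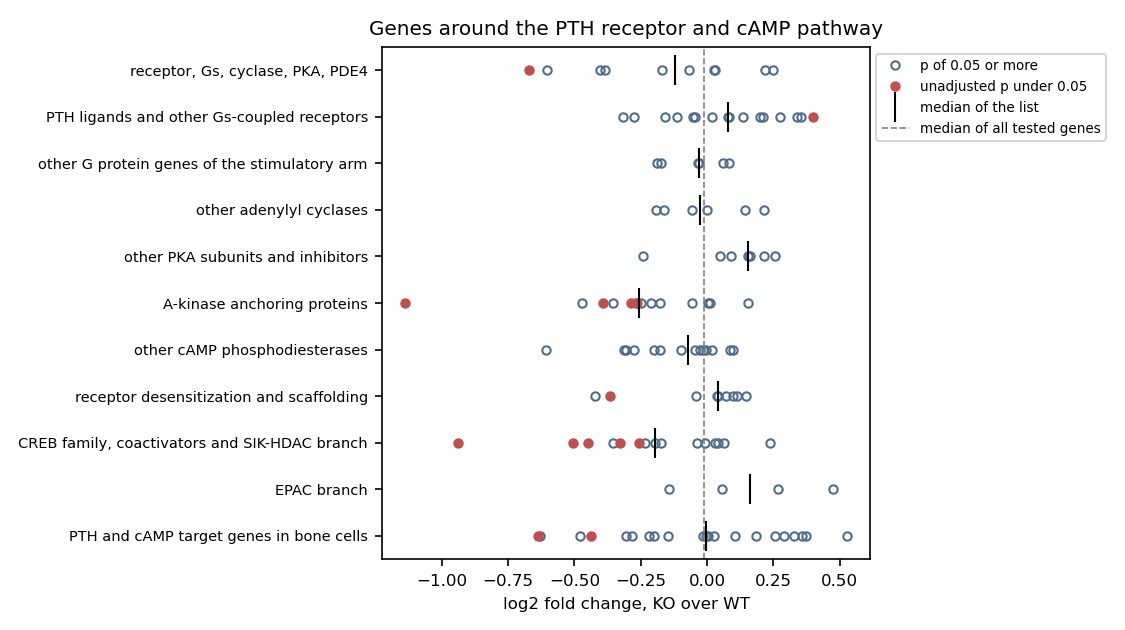
Log2 fold change of KO over WT (horizontal axis) of each tested gene, with the 10 genes of the receptor and cAMP machinery in the top row and the other pathway lists under it. Filled points have an unadjusted p under 0.05, black bars are list medians, and the medians of the anchoring proteins and of the CREB and SIK list, -0.26 and -0.20, lie lowest.

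Likeness to Pth1r was measured as the root mean square difference between log2 CPM values centred on each gene's mean over the 8 libraries. Among 9340 genes with a mean of at least 10 CPM and an SD of at least that of Pth1r divided by 1.5, the nearest were Glt8d1 at 0.054 log2 units, Zfp653 and Ppic at 0.062 and 0.063, Mib2 at 0.065 and Rbm39 at 0.070, against a median of 0.28 over those genes. Their log2 fold changes ran from -0.23 to -0.074, and 0 of the 5 passed. Because the 5 were chosen for nearness to Pth1r over the same 8 libraries, log2 fold changes near its own follow from the choice. Of the other 9 genes of the pathway core, Prkar1a had the smallest difference from Pth1r, at 0.23 and rank 2525. Adcy9 had the largest, at 0.73 and rank 9235. The measure grows with a gene's own spread, and these were also the genes with the smallest and largest SD of the 9, 0.18 and 0.72. The order is thus no sign that Prkar1a followed Pth1r, and their log2 fold changes had opposite signs, 0.22 and -0.17. Adcy3, with a mean under 10 CPM, has no rank.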

How the data were processed

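Bulk RNA of 8 femoral shafts was sequenced. The authors deposited raw counts for each Ensembl gene, 1 column a mouse. The submitters' processing notes list bcl2fastq 2.17, STAR 2.5.2b, Subread 1.5.2 with featureCounts, and build mm10. Strand and multi-mapping settings and the annotation used are not stated there. Symbols, positions and union exon lengths came from GENCODE M21 on GRCm38, the build of mm10, which held 49056 of the 49315 IDs, and promoter windows came from RefSeq.

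The robust quasi-likelihood test of edgeR 4.0.16 (R 4.3.3) was run on those deposited counts, with TMM factors, filterByExpr and genotype as its single term. The Benjamini-Hochberg adjustment covered all 17450 genes tested. Replicates were taken from the sample titles, with 4 mice per group. TPM values are counts per union exon length, over all annotated transcripts of a gene, scaled to each library. Counting error is small beside the spread between mice, since each of the 10 genes had 156 to 17128 counts per library. No pair of libraries agreed within sampling noise.

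The 10 genes, the pathway lists and the markers were chosen with earlier results of these data known. Named are the 10 genes, in each list the called genes or otherwise the 2 with the smallest p, the 5 genes nearest to Pth1r in pattern, and Sik2, chosen after its values were seen. Alternatives were DESeq2 1.42.0, limma-voom (limma 3.58.1) with quality weights, other scalings and filters, the replicate number as a block, a muscle or marrow score as a covariate (mean log2 CPM of marker genes, prior count 2), removal of the trend with exon length and GC content by loess (span 0.3), and libraries left out.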

Additional observations from a re-analysis of the deposited data

Results flagged for a closer look

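A library is given here where its gap to the nearest of the other 3 libraries of its group was, as a share of the group's range, above Dixon's 95% critical value. This held for 8 of 90 group values examined, and chance gives about 1 in 20. The 90 values are not independent, since shares of 1 family add up to 100%.

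Adcy3 was at 9.42 CPM in KO replicate 3, with the other KO libraries at 5.49 to 6.03 CPM. The Adcy7 share of the cyclase transcripts was 10.4% in KO replicate 4, with the other KO libraries at 14.9 to 15.3%. Pde10a was at 5.18 CPM in KO replicate 3, with the other KO libraries at 6.10 to 6.23 CPM.

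The remaining 5 values all came from WT replicate 4, the library with the lowest summed skeletal muscle markers (68127 CPM, against 109353 to 124166 CPM in the other WT libraries). Prkar2b was at 86.0 CPM there, with 44.1 to 45.8 CPM in the other WT libraries. Among the PKA regulatory subunits, its Prkar2b share was 29.5%, its Prkar1a share 45.5% and its Prkar2a share 23.8%. Its Pde4d share of the PDE4 transcripts was 22.4%, with 27.4 to 27.6% in the other WT libraries. The part of muscle RNA in these values was not tested.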

How the results depend on the processing

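In all 19 alternative settings 0 of the 10 genes passed. Over all genes, against 2 calls in the main test, DESeq2 called 984, limma-voom 705, edgeR without a low-count filter 71, with the replicate block 1, with the muscle score 1339, with the marrow score 1321, without both libraries numbered 4 458, and with 1 library left out 2 to 4. Of the 112 other pathway genes, 0 were called in the main test, 4 by DESeq2, 5 by limma-voom, 12 with the muscle score, 6 with the marrow score and 4 without both libraries numbered 4. In the same order, the shares called of all genes with an adjusted p were 0.0115%, 6.19%, 4.04%, 7.67%, 7.57% and 2.62%. The larger sets of calls held none of the 10 genes, and the cause of their size was not tested. Library totals in place of TMM moved the median of all genes by -0.10 on the log2 scale.

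Signs of log2 fold changes turned as follows. In limma-voom they were -0.025 for Gnas, -0.082 for Prkaca and 0.040 for Prkar2b. With library totals they were -0.075 for Gnas and -0.085 for Prkaca. With the muscle score they were -0.26 for Gnas, -0.32 for Prkaca, -0.12 for Pde4b, 0.32 for Gng2, -0.22 for Adcy2, 0.36 for Prkar2b and 0.00080 for Rbm39. With the length and GC trend removed they were -0.021 for Prkaca, 0.15 for Pde4d, 0.052 for Rapgef3 and 0.0033 for Rbm39. Without both libraries numbered 4 they were -0.19 for Gnas, -0.24 for Prkaca, 0.16 for Gng2, -0.065 for Adcy2 and 0.25 for Prkar2b. With single libraries left out, Gnas ran from -0.10 to 0.15, Prkaca from -0.14 to 0.11, Pde4d from -0.28 to 0.11 and Prkar2b from -0.46 to 0.056. The cause was not tested.

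Libraries with the same replicate number did not deviate together (correlations of their deviations from the group means, -0.57 to -0.17 in 4 pairs), so the numbers were not taken as pairs. The replicate block gave 1 call over all genes, against 2 without it, and left the 10 genes at 0. Depth limited Akap2, with 8 to 34 counts per library, and Kcnj9.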
